A study of Mus musculus with 6 samples.

Results

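Endoderm and visceral endoderm genes, 10 of the 25239 in the count table, were followed in mouse thyroid organoids, and each was taken by its symbol: Sox17, Foxa2, Gata4, Gata6, Hnf4a, Afp, Ttr, Rbp4, Amn and Cubn. Libraries were made from follicle-enriched organoids of a selected clone of G4 RosaLuc mouse embryonic stem cells with 2 transgenes. In the first, TRE-Nkx2-1-Pax8, doxycycline induces the thyroid factors Nkx2-1 and Pax8, and in the second, bTg-NES-BrafV637E-ERT2, the bovine thyroglobulin promoter drives a mutant Braf fused to a tamoxifen-responsive receptor domain. Enrichment by enzyme digestion and straining left cells other than follicular cells in the organoids. All 3 groups carried these transgenes and had 5 days of doxycycline and 2 weeks of 8-Br-cAMP, and RNA was taken at day 31 from pooled wells. The labels name cAMP in all 3 groups at day 31, and the methods describe it during the treatments below too.

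The cAMP group had no 4-hydroxytamoxifen, the agent that activates the mutant Braf. The 4OHT group received 1 µM of it for 5 days. In the PD+LY group the MEK inhibitor PD0325901 (250 nM) and the PI3K inhibitor LY204002 (5 µM) were given together with 1 µM 4OHT for 3 days. For inhibitor treatments the methods describe 4 days of 4OHT beforehand, which makes the exposure to 4OHT longer than in the 4OHT group if these libraries were treated so, and the inhibitors and a difference in 4OHT exposure cannot be told apart. Each group had 2 libraries, of 14898409 to 20637959 counts, and no source says that the duplicates were separate differentiations, so the p-values measure the spread between these libraries, which may be technical. A gene was called changed when the edgeR quasi-likelihood test gave a Benjamini-Hochberg adjusted p under 0.05 over the 15256 genes tested and the change was at least 2-fold. All 10 genes were tested, Afp on the counts of the cAMP libraries alone.

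Visceral endoderm is the extraembryonic epithelium that surrounds the early mouse embryo and takes up, transports and secretes proteins before the placenta and liver take over. Gata4, Gata6, Sox17 and Foxa2 encode transcription factors that set up primitive and definitive endoderm, the germ layer from which the thyroid also arises, and Hnf4a encodes a nuclear receptor that drives liver and visceral endoderm genes. Afp, Ttr and Rbp4 encode secreted carriers: alpha-fetoprotein, the thyroid hormone carrier transthyretin, and the retinol carrier that circulates bound to transthyretin. Amn (amnionless) and Cubn (cubilin) encode the 2 chains of cubam, an apical endocytic receptor for vitamin B12 bound to intrinsic factor, apolipoprotein A-I and other ligands. Several of these genes are used by other tissues too, such as Amn and Cubn in kidney tubules, Gata4 and Gata6 in the heart, and Sox17 in endothelium.

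The early transcription factors were not called in any comparison. Under PD+LY, Amn, Hnf4a and Rbp4 fell against 4OHT, Cubn was lower by less than 2-fold, and Ttr was higher by less than 2-fold. In bulk RNA, fewer cells of a type and less RNA per cell cannot be told apart, and this holds for every difference below.

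For 4OHT against cAMP, 0 of 10 were called, where 1.17% of all genes tested were called higher and 1.51% lower, and 0 passed the adjusted p alone, where 8.39% of all genes did. By the unadjusted p, Sox17 and Afp were under 0.05 in edgeR, and DESeq2 called 0 as well. For PD+LY against 4OHT, 3 of 10 were called lower and 0 higher, where 4.90% of all genes were called lower and 2.35% higher, and 5 of 10 passed the adjusted p alone, where 22.7% of all genes did. For PD+LY against cAMP, 2 of 10, Amn and Afp, were called lower and 0 higher, with 6.24% and 3.00% of all genes. Afp was tested through the cAMP libraries, where it is high, so only Amn can be set against that share. In this comparison 6 of the 10, Afp included, passed the adjusted p alone, with 25.7% of all genes.

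Both libraries of 1 group lay on the same side of both of the other for 6 genes (5 lower under 4OHT than under cAMP and 1 higher), where 29.4% of all genes were lower and 29.1% higher. Both libraries of PD+LY were below both of 4OHT for 6 of the 10 genes and above for 1, where 31.1% of all genes were lower and 31.1% higher, and below both of cAMP for 5 and above for 1, with 31.2% and 30.2% of all genes. The median log2 fold change of the 10 genes was -0.09, -0.54 and -0.69 in the 3 comparisons, and that of all genes was 0.00, 0.01 and 0.00. Afp is among the lower genes in each of the 3 comparisons and is part of these medians. Because Afp was tested through the cAMP libraries, where it is high, its place below cAMP cannot be set against the shares of all genes. The comparisons share groups of libraries and are not independent of each other.

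The stretches upstream of Hnf4a and of both cubam chains are shown because these 3 genes were lower under PD+LY with an adjusted p under 0.05 against both other groups, and that of Rbp4 because it holds a motif match. In GENCODE M21 (GRCm38) Hnf4a lies at chr2:163506808-163572910 on the plus strand, Amn at chr12:111271095-111276426 on the plus strand, Cubn at chr2:13276338-13491813 on the minus strand and Rbp4 at chr19:38116629-38125281 on the minus strand. RefSeq promoter windows (GRCm38.p6) were matched by symbol for 6 of the 10 genes, and the 250 bases before the RefSeq start were searched. The last 49 of these for Hnf4a and the last 1 for Amn lie inside the GENCODE gene and are left out below. The printed stretches, 5′ to 3′ on the gene's strand with motif matches in capitals, are chr2:163506607-163506807 for Hnf4a, chr12:111270846-111271094 for Amn, chr2:13491877-13492126 for Cubn and chr19:38125322-38125571 for Rbp4.

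Hnf4a: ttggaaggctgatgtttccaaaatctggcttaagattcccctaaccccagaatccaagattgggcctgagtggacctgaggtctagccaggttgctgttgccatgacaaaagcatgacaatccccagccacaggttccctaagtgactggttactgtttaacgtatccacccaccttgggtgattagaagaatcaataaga
Amn: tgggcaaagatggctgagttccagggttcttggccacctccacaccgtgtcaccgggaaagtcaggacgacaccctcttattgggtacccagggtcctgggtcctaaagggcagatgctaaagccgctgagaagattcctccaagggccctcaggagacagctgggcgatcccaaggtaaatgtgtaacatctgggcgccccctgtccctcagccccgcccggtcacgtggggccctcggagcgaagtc
Cubn: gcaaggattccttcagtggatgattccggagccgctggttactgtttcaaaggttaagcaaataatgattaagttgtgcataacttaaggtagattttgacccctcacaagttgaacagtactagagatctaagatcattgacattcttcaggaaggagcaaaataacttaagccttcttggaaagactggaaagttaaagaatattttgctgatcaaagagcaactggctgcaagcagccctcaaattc
Rbp4: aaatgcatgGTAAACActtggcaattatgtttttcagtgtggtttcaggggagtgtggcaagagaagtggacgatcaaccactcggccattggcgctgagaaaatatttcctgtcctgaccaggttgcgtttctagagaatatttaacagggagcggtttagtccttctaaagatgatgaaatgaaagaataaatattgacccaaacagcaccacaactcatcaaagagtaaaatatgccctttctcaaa

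The motifs searched on both strands were AGATAA and TGATAA for GATA factors, TGTTTAC and TATTTAC for FOXA, AAAGTCC for HNF4, and ACAATGG and ACAAAGG for SOX. The Rbp4 stretch holds a FOXA match at position -241 from the RefSeq start, and the Amn and Cubn stretches hold none of these letters. Rbp4 and Hnf4a each have a second RefSeq window, not printed, which holds none of them. That of Hnf4a starts at chr2:163546905, inside the GENCODE gene. The bases just after the start occur in a GENCODE transcript for the second Rbp4 window, but not for the second Hnf4a window or the printed Rbp4 and Cubn stretches. The first Hnf4a window holds AGATAA at position -52, across the GENCODE start of the gene, so this match is not whole in the printed stretch. Over all 32851 promoter stretches of the same length, 16.6% hold a GATA match, 5.76% a FOXA match, 3.58% an HNF4 match and 7.92% a SOX match. Among the other windows of these genes there was a GATA match at -183 from a Foxa2 start that lies within the GENCODE gene. These are matches of letters and not measured binding sites.

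Levels were compared between genes as normalised CPM, the count of a gene scaled to its library, per kilobase of exon, with exon lengths from GENCODE M21. Ttr stood first with a mean level of 263 over the 6 libraries, at the 99.4th percentile of all genes with a length. Gata4 was next at 27.0, followed by Amn at 12.8, Gata6 at 6.75 and Cubn at 6.36. The lower levels per kilobase were those of Foxa2 (3.16), Sox17 (3.12), Rbp4 (2.61), Hnf4a (1.77) and Afp (0.0999). The ranges over the 6 libraries did not overlap between Ttr and Gata4, between Gata4 and Amn, or between Hnf4a and Afp, while every other pair of neighbours overlapped. Within libraries, Rbp4 was still above Hnf4a in all 6, and Cubn was above Foxa2 in 5. In the remaining overlapping pairs the gene with the higher mean was above the next in 3 or 4 libraries.

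**Figure D1:**
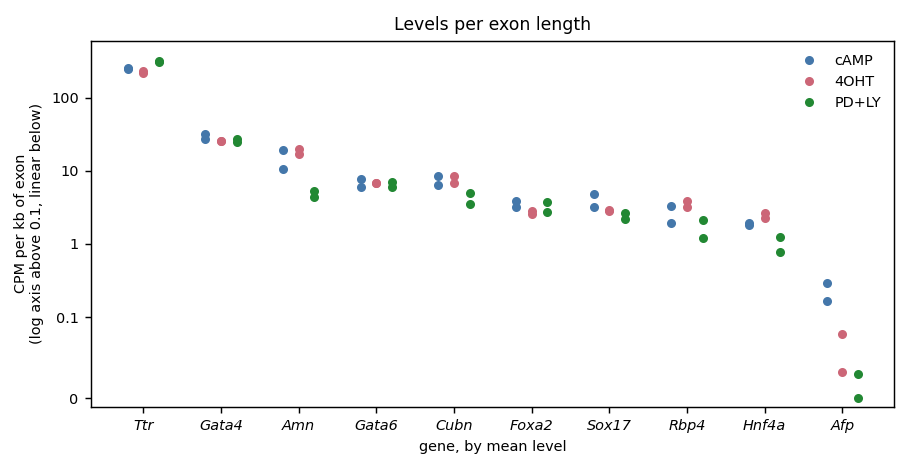
CPM per kilobase of exon (vertical axis, logarithmic above 0.1 and linear below) of the 10 genes ordered by mean level (horizontal axis), with 1 point per library coloured by group. Ttr lies above 200 in all 6 libraries, and Afp lies at or near 0 in 4OHT and PD+LY.

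Of a list of 20 other visceral endoderm genes, 12 had at least 3 counts in every library, among them Trf, for transferrin, at 43.5 to 108 CPM, and 2 had none in any library. Some secreted products of visceral endoderm were at or near the floor, and these were named after their values were seen. Afp had 9 and 20 counts in cAMP, 4 and 2 in 4OHT, and 2 and 0 in PD+LY. Alb (albumin) had 2 counts in 1 of the 6 libraries and none in the others, and Apoc2 and Fga, for an apolipoprotein and a fibrinogen chain, had none in any library. A count of 0 allows up to 3 counts, or 0.146 to 0.200 CPM in these libraries, counting error only. Of a list of 10 thyroid genes, 9 had at least 3 counts in every library. Tg, the thyroglobulin gene, was at 514 to 1869 CPM and Pax8 at 13.7 to 20.9 CPM over the libraries. Pax8 is also on a transgene, and counts by symbol do not separate it from the endogenous gene. Duox2 had only 7 to 32 counts and Slc26a4 0 to 5, both named after their values were seen. A list of 8 pluripotency genes summed to 3400 to 3580 CPM in cAMP, 3925 to 4113 in 4OHT and 4139 to 4385 in PD+LY, and edgeR called no gene on it at 2-fold. For PD+LY compared with cAMP 6 of the 8 passed the adjusted p alone, 5 of them higher, where 25.7% of all genes passed in both directions together. The part of the cells with this expression in the endoderm values was not tested. The 10 endoderm genes summed to 617 to 649 CPM in cAMP, 572 to 618 in 4OHT and 606 to 629 in PD+LY, ranges that overlap and in which Ttr is the largest part.

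**Figure D2:**
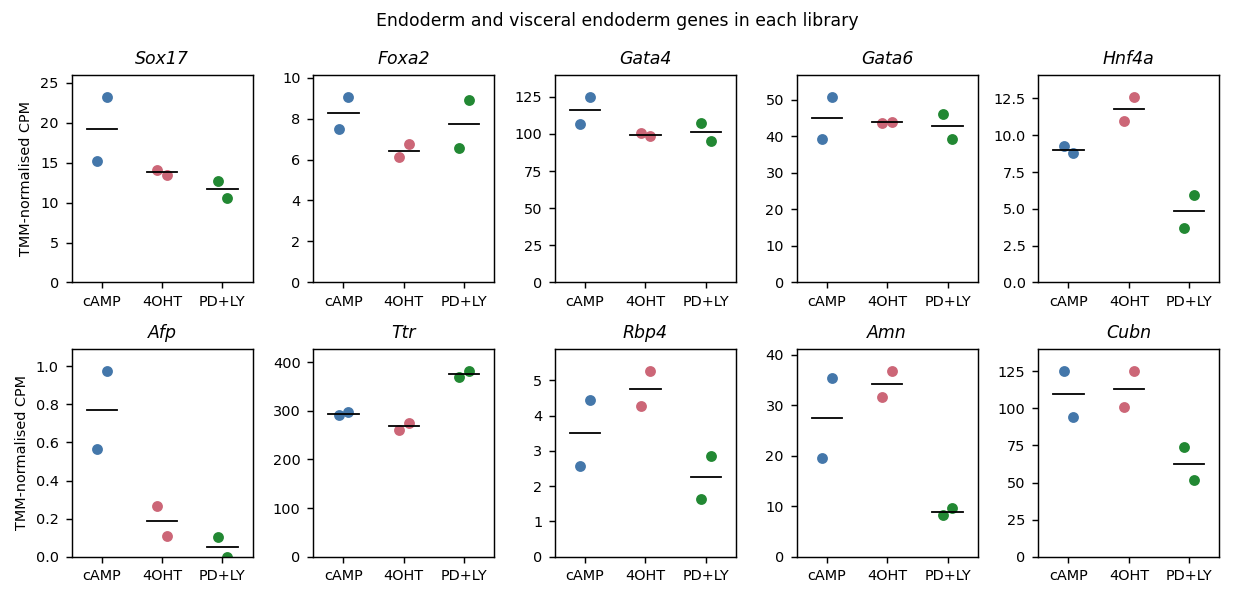
TMM-normalised CPM (vertical axes, linear from 0) of each gene in every library, with 1 point per library and a line at the mean of the 2 libraries of the group. The PD+LY points of Amn, Hnf4a and Cubn lie below all 4OHT and cAMP points, those of Ttr lie above, and the groups overlap for Gata6.

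The transcription factors that act early in endoderm are taken first. Gata4 was at 107 and 125 CPM in cAMP, 100.4 and 98.5 in 4OHT, and 107 and 95.4 in PD+LY. Gata6 was at 39.2 and 50.9 CPM in cAMP, 43.8 and 44.0 in 4OHT, and 46.1 and 39.4 in PD+LY. For Gata6 the duplicates of cAMP and of PD+LY enclosed both 4OHT libraries, and for Gata4 both 4OHT libraries were below both cAMP libraries while PD+LY overlapped both other groups. The edgeR log2 fold changes of Gata4 were -0.22 (95% interval -0.46 to 0.01) for 4OHT against cAMP, 0.03 (-0.21 to 0.26) for PD+LY against 4OHT and -0.20 (-0.43 to 0.04) for PD+LY against cAMP. Those of Gata6 were -0.04 (-0.35 to 0.27), -0.04 (-0.35 to 0.27) and -0.08 (-0.39 to 0.23) in the same order, so these intervals exclude a 2-fold change in either direction for both GATA factors. Per kilobase Gata4 exceeded Gata6 in every library, with a ratio of 3.73 to 4.54.

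Foxa2, whose product opens chromatin at foregut and liver genes, was at 7.48 and 9.06 CPM in cAMP, 6.13 and 6.74 in 4OHT, and 6.57 and 8.90 in PD+LY. The 4OHT libraries of Foxa2 were below both cAMP libraries, but its log2 fold change of -0.36 (SE 0.22) did not pass the test (edgeR adjusted p = 0.350), and PD+LY overlapped both other groups. Sox17 was at 15.2 and 23.2 CPM in cAMP, 14.1 and 13.5 in 4OHT, and 12.7 and 10.6 in PD+LY. The 3 groups of Sox17 did not overlap, and the second cAMP library stood above the rest. Its log2 fold change was -0.49 (SE 0.20, adjusted p = 0.166) for 4OHT against cAMP and -0.73 (SE 0.20, adjusted p = 0.0202) for PD+LY against cAMP in edgeR, the latter under 2-fold. Without the second cAMP library the latter was -0.37 (adjusted p = 0.287), and without the second PD+LY library -0.60 (adjusted p = 0.0765).

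Sox17 also marks endothelium, and a list of 10 endothelial genes was followed in the same comparisons. Of its 9 tested genes, 4 fell under 4OHT against cAMP (1.51% of all genes), one of them, Sox18, tested on the cAMP libraries alone, and among them were Kdr, a VEGF receptor, with a log2 fold change of -2.31 and Cdh5, the gene of VE-cadherin, with -1.47. Pecam1, the most abundant gene of the list and named after its values were seen, was at 135 and 128 CPM in cAMP, 171 and 168 in 4OHT, and 148 and 155 in PD+LY, higher under 4OHT by less than 2-fold (0.36, SE 0.09, edgeR adjusted p = 0.0271). Under PD+LY against cAMP 5 of the 9 fell, Sox18 included (6.24% of all genes). The summed level of the whole list was 183 to 192 CPM in cAMP, 197 to 200.4 in 4OHT and 174 to 175 in PD+LY, and 9 of its 10 genes had at least 3 counts in every library. Pecam1 is the largest part of this sum. It was the only 1 of the 9 tested genes with a positive log2 fold change under 4OHT against cAMP, and the other 8 were negative. The part of endothelial cells in the Sox17 values was not tested.

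Hnf4a was at 9.24 and 8.82 CPM in cAMP, 10.9 and 12.6 in 4OHT, and 3.72 and 5.93 in PD+LY. Its 3 groups did not overlap, with 4OHT highest and PD+LY lowest. The difference of 4OHT from cAMP, 0.39 on the log2 scale (SE 0.22), did not pass the test (edgeR adjusted p = 0.320). Hnf4a fell by 1.29 on the log2 scale (SE 0.23, 95% interval -1.79 to -0.78) under PD+LY against 4OHT, to 0.410 of its level (edgeR adjusted p = 0.00236). Against cAMP its log2 fold change was -0.90 (SE 0.23, adjusted p = 0.0144 in edgeR), under 2-fold. The first PD+LY library was the lower one, and without it the difference from 4OHT was -0.99 (adjusted p = 0.00716), just short of 2-fold, and that from cAMP was -0.60 (adjusted p = 0.0571). Without the first cAMP library the latter was -0.87 (adjusted p = 0.0512), and without the second PD+LY library it was -1.28, past 2-fold.

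The cubam chains followed. Amn was at 19.5 and 35.4 CPM in cAMP, 31.7 and 36.8 in 4OHT, and 8.20 and 9.67 in PD+LY. Both PD+LY libraries were below every other library, while the cAMP duplicates lay far apart, the first at the lower value. Amn fell by 1.94 on the log2 scale (SE 0.24, 95% interval -2.46 to -1.41) under PD+LY against 4OHT, to 0.261 of its level (edgeR adjusted p = 0.000234), and had a log2 fold change of -1.62 (SE 0.24) against cAMP (adjusted p = 0.00047). These calls held without each library in turn, with log2 fold changes of -2.06 to -1.82 against 4OHT and -1.98 to -1.11 against cAMP, the last of them without the second cAMP library. Under 4OHT against cAMP its log2 fold change was 0.31 (SE 0.22, edgeR adjusted p = 0.430). Without the second cAMP library it was 0.82 and passed the adjusted p (0.0373), under 2-fold, and without the first it was -0.047 (adjusted p = 0.952).

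Cubn was at 125 and 94.2 CPM in cAMP, 101 and 125 in 4OHT, and 73.6 and 51.9 in PD+LY. Both PD+LY libraries were below the other 4, and cAMP and 4OHT overlapped. The log2 fold change was -0.85 (SE 0.17, 95% interval -1.23 to -0.47) for PD+LY against 4OHT (edgeR adjusted p = 0.00516) and -0.80 (SE 0.17) against cAMP (adjusted p = 0.00574), both under 2-fold. Without the first PD+LY library they passed 2-fold, at -1.12 and -1.07, and without the second 4OHT library the first of them was -0.68 and did not pass the test (adjusted p = 0.0786). Per kilobase, Amn was at 1.26 and 3.04 times the level of Cubn in cAMP, 2.55 and 2.38 times in 4OHT, and 0.902 and 1.51 times in PD+LY. The first cAMP library lay within the range of PD+LY in this ratio, and the other cAMP library and both 4OHT libraries lay above it.

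The secreted carriers did not move together. Ttr was at 291 and 297 CPM in cAMP, 259.9 and 275 in 4OHT, and 369.6 and 381 in PD+LY. Its 3 groups did not overlap, the duplicates were close, and PD+LY was highest. The log2 fold change of Ttr was 0.49 (SE 0.08, 95% interval 0.30 to 0.67) for PD+LY against 4OHT (edgeR adjusted p = 0.0018) and 0.35 (SE 0.08) against cAMP (adjusted p = 0.00962), both under 2-fold. Without the first or the second cAMP library the latter missed the threshold, with an adjusted p of 0.0807 and 0.0520.

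Rbp4 had 41 and 91 counts in cAMP, 64 and 96 in 4OHT, and 32 and 59 in PD+LY, which gave 2.58 and 4.43, 4.27 and 5.26, and 1.63 and 2.87 CPM. Both PD+LY libraries were below both 4OHT libraries, and cAMP overlapped both groups. Rbp4 fell by 1.08 on the log2 scale (SE 0.35, 95% interval -1.85 to -0.32) under PD+LY against 4OHT (edgeR adjusted p = 0.0446). This call was lost without the first 4OHT library (-1.22, adjusted p = 0.0963), without the second (-0.92, adjusted p = 0.246) and without the first PD+LY library (-0.74, adjusted p = 0.184), and with DESeq2 (-1.09, adjusted p = 0.0540). Against cAMP its log2 fold change was -0.65 (SE 0.36, edgeR adjusted p = 0.203).

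Afp was close to the floor throughout. It fell under PD+LY against cAMP in edgeR (adjusted p = 0.0164), from 29 counts in both cAMP libraries together to 2 in both PD+LY libraries. The ratio of the summed counts, scaled to library size, was 16.0 for cAMP over PD+LY, with an exact 95% counting interval of 4.05 to 138, and 4.41 (1.80 to 13.0) for cAMP over 4OHT, where the edgeR test gave an adjusted p of 0.160. The call was lost without the second cAMP library (adjusted p = 0.140) and without the second PD+LY library (adjusted p = 0.0982). Afp was tested because the cAMP libraries passed the filter, so its call is a description of a gene at very low counts.

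**Figure D3:**
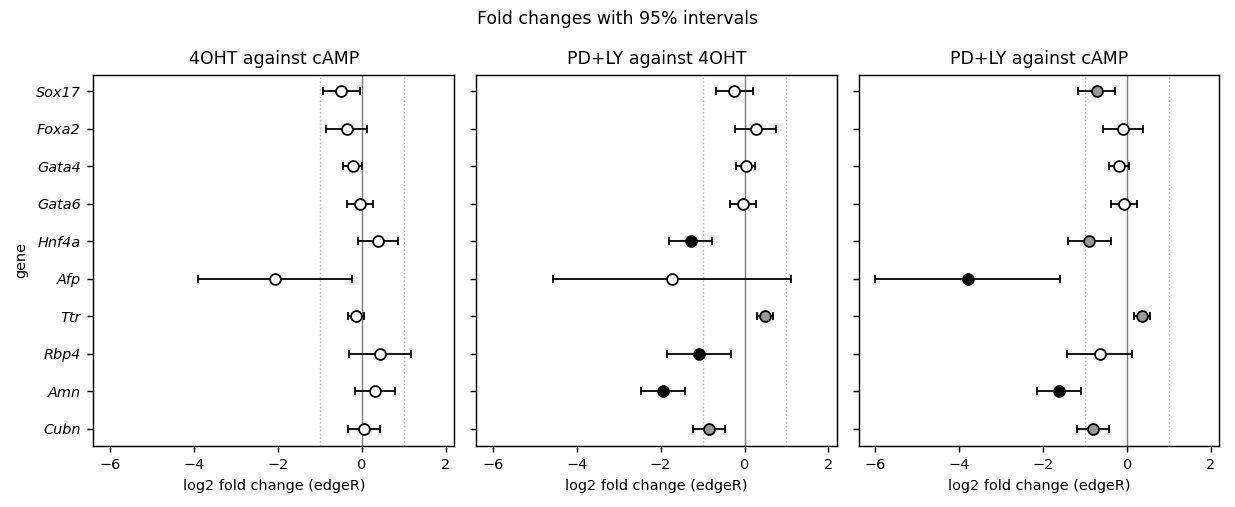
Log2 fold changes from edgeR (horizontal axes) with 95% intervals for the 10 genes (vertical axis) in the 3 comparisons. Filled points passed the adjusted p and 2-fold, grey points the adjusted p alone, open points neither, and dotted lines mark 2-fold. Amn, Hnf4a and Rbp4 are filled on the left in the middle panel, and Ttr is the grey point to the right of 0.

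A list of 20 other visceral endoderm genes, of which 16 were tested, was set beside these. Under PD+LY against 4OHT, 8 of the 16 fell, where 4.90% of all genes did, the others were not called, and the median log2 fold change was -1.16. One of the 8, Fgb, was tested on the 4OHT libraries alone. The 4 that changed most, counting genes whose mean reached 50 counts, were Soat2, a cholesterol esterifying enzyme, lower by a log2 fold change of -2.50 (SE 0.34), Dab2, an adaptor that carries cubam and megalin into coated pits (-1.28, SE 0.13), Apom, an apolipoprotein (-1.24, SE 0.32), and Trf, for transferrin (-1.16, SE 0.13). Dab2 was at 91.7 and 108 CPM in cAMP, 94.4 and 89.8 in 4OHT, and 42.0 and 34.0 in PD+LY. For Dab2 the PD+LY libraries were at less than 50% of every other library, and its adjusted p in edgeR was 5.55e-05.

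Under PD+LY against cAMP, 7 of the 16 fell, where 6.24% of all genes did, and the others were not called, with a median of -1.07. One of the 7, Apoa1, was tested on the cAMP libraries alone. They included Soat2 (-2.11, SE 0.34), Lrp2, the gene of the endocytic receptor megalin that works with cubam (-1.64, SE 0.22), Mttp, which loads lipid onto apolipoprotein B (-1.53, SE 0.24), and Dab2 (-1.40, SE 0.13). Under 4OHT against cAMP 1 of the 16 rose and 2 fell, where 1.17% of all genes rose and 1.51% fell, with a median of -0.06. Lrp2 was at 179 and 124 CPM in cAMP, 65.3 and 83.1 in 4OHT, and 60.6 and 36.5 in PD+LY. It was thus already lower under 4OHT (-1.02, SE 0.22, edgeR adjusted p = 0.0146), where neither Amn nor Cubn passed the test with all 6 libraries. Whether Lrp2 and the cubam genes differed in this change was not tested.

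The other genes called under 4OHT were at low counts and were named after their values were seen. Fgg, a fibrinogen chain, had 14 and 8 counts in cAMP, 35 and 48 in 4OHT, and 12 and 4 in PD+LY, and Spink1, a secreted protease inhibitor, had 71 and 142, 19 and 12, and 2 and 2. Fgg rose and Spink1 fell under 4OHT, and both fell under PD+LY against 4OHT. The summed level of the 20 genes was 653 to 683 CPM in cAMP, 669 to 702 in 4OHT and 477 to 511 in PD+LY, so both PD+LY libraries were below the other 4. The largest part of this sum is Rhox5, named after its values were seen, at 251 and 267 CPM in cAMP, 354 and 348 in 4OHT, and 287 and 355 in PD+LY. Rhox5 did not take part in the drop, with a log2 fold change under PD+LY of -0.13 against 4OHT (edgeR adjusted p = 0.408) and 0.31 against cAMP (adjusted p = 0.0476).

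**Figure D4:**
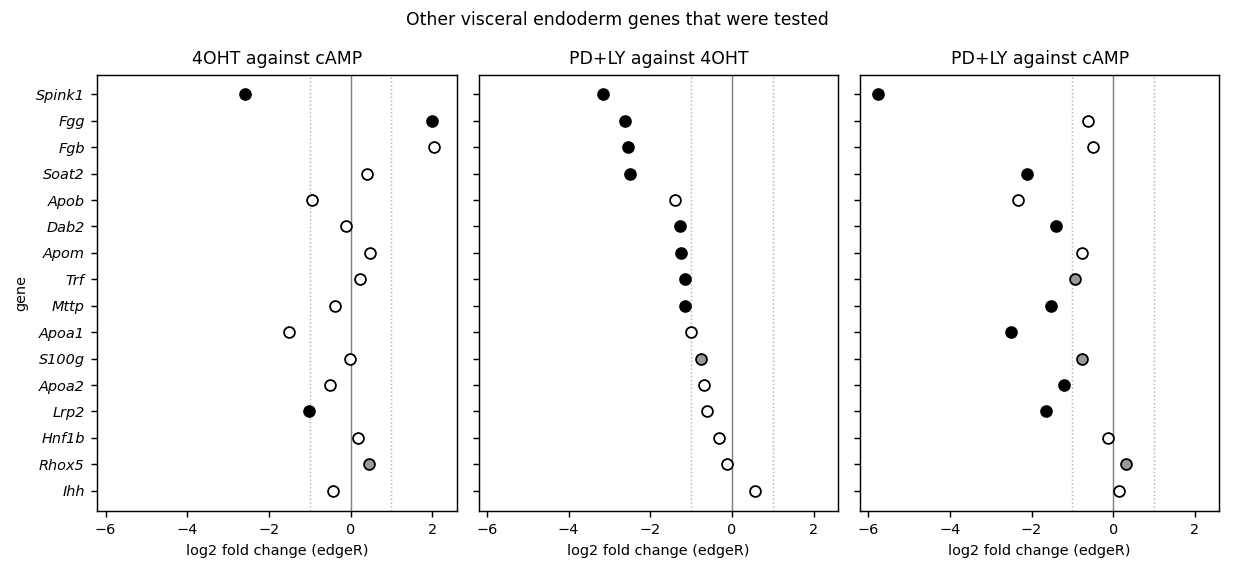
Log2 fold changes from edgeR (horizontal axes) of the 16 tested genes of the list of other visceral endoderm genes (vertical axis) in the 3 comparisons. Filled points passed the adjusted p and 2-fold, grey points the adjusted p alone and open points neither. In the middle panel 8 genes are filled and lie to the left of the dotted line at -1.

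The uptake partners of cubam and of the vitamin A carrier proteins were also examined, as a list of 16 genes of which 15 were tested; it shares Lrp2 and Dab2 with the list above. Under PD+LY against 4OHT 4 of the 15 fell, where 4.90% of all genes did, and the others were not called. The 4 were Crabp1, a cytosolic retinoic acid binding protein (-1.95, SE 0.17), Dab2, Stra6, the cell surface receptor for the Rbp4 protein (-1.10, SE 0.14), and Vldlr, a lipoprotein receptor (-1.03, SE 0.15). Stra6 was at 58.3 and 75.1 CPM in cAMP, 44.3 and 49.1 in 4OHT, and 22.1 and 21.4 in PD+LY. The groups of Stra6 did not overlap, with PD+LY lowest. Under 4OHT against cAMP, Crabp2 (-1.13, SE 0.17) and Lrp2 were the 2 that fell (1.51% of all genes). Under PD+LY against cAMP 6 fell (6.24% of all genes). The medians of the list were -0.01, -0.25 and -0.26 in the 3 comparisons.

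Among 15 other early endoderm and mesendoderm genes, 13 were tested. Cer1, a secreted inhibitor of Nodal, BMP and Wnt made by the anterior visceral endoderm, had 104 and 308 counts in cAMP, 0 and 2 in 4OHT, and 0 and 0 in PD+LY. Cer1 thus had counts well above the floor in cAMP only, and it passed the filter on those libraries alone, as did T and Lhx1. Under 4OHT against cAMP 2 of the 13 fell, Cer1 and Lhx1, a factor of the anterior visceral endoderm, where 1.51% of all genes fell. Both were tested through the cAMP libraries, where they are high, so they cannot be set against that share. Under PD+LY against 4OHT, Eomes (-1.28, SE 0.29), a T-box factor of mesendoderm, was among those that fell, and Prdm1 (1.17, SE 0.14), a repressor in early endoderm and germ cells, rose together with Gsc, named after its values were seen. Eomes was at 10.2 and 10.6 CPM in cAMP, 4.87 and 7.90 in 4OHT, and 3.21 and 2.09 in PD+LY, so PD+LY lay below the other 4 libraries. Under PD+LY against cAMP 5 fell and 1 rose, where 6.24% of all genes fell and 3.00% rose. Cer1, T and Lhx1 are among the 5 and cannot be set against that share. The medians of the list were -0.80, 0.20 and -0.60.

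Parietal endoderm, which lays down the basement membrane outside the visceral layer, was followed with 13 genes, all tested. Krt19, a keratin, was the only one that edgeR called in the 3 comparisons. It was lower under PD+LY against 4OHT (-1.08, SE 0.13), where 4.90% of all genes were called lower. The medians of the list were -0.13, 0.39 and 0.14. Most of the list went the other way in that comparison, with 10 of the 13 log2 fold changes positive. By the adjusted p alone 6 were higher and 2 lower, Krt19 included, where 22.7% of all genes passed in both directions together. Its summed level was 8919 to 10131 CPM in cAMP, 8692 to 9431 in 4OHT and 10463 to 12969 in PD+LY. Of 12 GATA cofactor and cardiac genes 10 were tested. Under PD+LY compared with cAMP edgeR called 3 of them lower, where 6.24% of all genes were, while DESeq2 called 0. The 3 were Mef2c, Myl7 and Myh6, each with a mean under 50 counts and named after its values were seen. The medians of that list were 0.20, -0.40 and -0.15. Of the thyroid follicular list of 10 genes, 9 were tested. Of these, 2 fell under 4OHT against cAMP (1.51% of all genes), among them Tg at -1.10 on the log2 scale. Under PD+LY against 4OHT 6 rose (2.35% of all genes), led by Tshr (2.08) and Iyd (1.85). The summed thyroid list was 1099 to 1649 CPM in cAMP, 563 to 754 in 4OHT and 987 to 1985 in PD+LY. The part of a change in the share of follicular cells in the endoderm values was not tested.

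Across the 6 libraries, Pearson's r of log2 CPM was 0.91 between Hnf4a and Amn, 0.88 between Hnf4a and Rbp4, 0.90 between Amn and Rbp4, and -0.91 between Ttr and Amn. Sox17 had r of 0.92 with Gata4 and 0.93 with Afp. These values describe 6 libraries that fall into 3 groups, and the genes share libraries and depth. The genes most like Amn in pattern were Inf2 (r = 0.998), Tspo2 (0.996) and Rin1 (0.995), and those like Hnf4a included Pank4 (0.997) and Epha2 (0.997). Those most like Rbp4 were Mxd4 (0.998), Spata5l1 (0.997) and Mllt6 (0.996), and those most like Afp were Plgrkt (0.991), Gas2 (0.991) and Zfp467 (0.988). Such values were common: 766 of the 12223 genes compared had r over 0.9 with Amn, and 654 with Hnf4a.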

How the data were processed

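Per the labels and the methods, libraries were made with a stranded mRNA kit, and the authors trimmed reads with Trimmomatic, aligned them to mm10 with HISAT2 and counted them with HTSeq, ignoring strand. The deposited values are raw counts per gene symbol. Antisense genes share exon bases with Sox17, Gata6 and Cubn and are not in the count table, so their reads cannot be told apart.

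Genes were filtered with filterByExpr (minimum count 10, minimum total 15), leaving 15256, normalised with TMM and fitted in edgeR 4.0.16 (R 4.3.3) with 1 quasi-likelihood model of 3 groups over 6 libraries. Tests are two-sided. An exact permutation test of 2 against 2 libraries cannot go below p = 0.333 and was not used. On simulated data (4OHT against cAMP, 15022 genes) edgeR called 196 of 200 changed genes with 2 false calls. That result was not split by size of change or by expression level. It therefore gives no rate of detection for changes near 2-fold or for genes at low counts, such as Afp. Alternatives were DESeq2 1.42.0, RLE scaling, other filters, a replicate block, and leaving out each library. Genes beside the 10 are named if called with a mean of at least 50 counts, at most 4 per list and comparison. A few genes that this rule selects are not reported here. The 10 genes and the lists were chosen with earlier results of these data known. Exon lengths were matched for 24323 of 25239 genes.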

Additional observations from a re-analysis of the deposited data

How the results depend on the processing

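Afp had 0 to 20 counts and Rbp4 32 to 96 counts per library, so their values carry the largest counting error of the 10 genes. Over all genes, the number called was 408 for 4OHT and 1409 for PD+LY when each was compared with cAMP, and 1107 for PD+LY when compared with 4OHT. In that order it was 1280, 3925 and 3469 without a fold threshold, and 164 to 487, 1118 to 1391 and 632 to 1176 with 1 library left out in turn. Of the 10 endoderm genes, 5 and 6 passed the adjusted p alone in the comparisons of PD+LY with 4OHT and with cAMP; 2 to 3 and 1 to 3 were called with 1 library left out, and 1 against cAMP with at least 10 counts in every library, a filter that removes Afp. DESeq2 called 369, 1250 and 974 genes, of which 355, 1247 and 969 were shared with edgeR, and gave Afp no adjusted p in the 2 comparisons with 4OHT. With DESeq2 1 gene was called in place of 3 among the other visceral endoderm genes and 1 in place of 2 among the uptake partners (4OHT against cAMP), and 0 in place of 3 among the GATA cofactor and cardiac genes and 1 in place of 2 among the thyroid genes (PD+LY against cAMP); the cause was not tested. The fit with the replicate number as a block called 513, 1481 and 1222 genes and 0, 2 and 3 of the 10; deviations of same-numbered libraries correlated at 0.0718 (cAMP and 4OHT), 0.207 (cAMP and PD+LY) and 0.0586 (4OHT and PD+LY), so the libraries are treated as sharing only a number. Log2 fold changes that turned were all uncalled, and are given as the range over the fits without 1 library: for 4OHT against cAMP Gata6 (-0.21 to 0.17), Amn (-0.047 to 0.82) and Cubn (-0.14 to 0.26), for PD+LY against 4OHT Gata4 (-0.060 to 0.11) and Gata6 (-0.16 to 0.072), and for PD+LY compared with cAMP Foxa2 (-0.34 to 0.10) and Gata6 (-0.25 to 0.13); the cause was not tested.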
